A study of Homo sapiens with 21 samples.

Results

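The comparison described here asks how the transcriptional response of MDA-MB-468, a triple-negative breast cancer (TNBC) line, to 250 nM THZ1 differed from the response of each of 2 lines that express the oestrogen receptor (ER+), ZR-75-1 and T47D. For every gene the log2 change at 250 nM against DMSO was taken in each line, and the change in an ER+ line was subtracted from the change in MDA-MB-468. A negative difference means that the gene fell further, or rose less, in MDA-MB-468. Genes were kept where the mean DMSO log2 intensity reached 7 (an intensity of 128) in all 3 lines, so that each line had signal to lose. This left 6577 genes, called members below, of 12644 genes tested and 18132 genes with a probe set on the array. The level that chose the members comes from the DMSO arrays, which also enter every change. The members are therefore no random sample of genes, and their DMSO levels are given as a description.

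The 12 arrays of this comparison are 2 per group. Each line received the solvent DMSO or 250 nM THZ1 for 6 hours, all in RPMI-1640 with serum and antibiotics, and all are human breast cancer cell lines. Arrays at 50 nM of the same lines, and a second TNBC line, BT-549, with 1 array per dose, are used only where named. Each line is 1 established culture model, so a difference between MDA-MB-468 and the ER+ lines is a difference between these lines and not between subtypes. In 1 label field the ZR-75-1 and T47D samples carry the name MDA-MB-468, whereas titles and the cell line field name the line.

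CDK7 is a kinase carried by TFIIH, a general transcription factor. It phosphorylates the C-terminal domain of RNA polymerase II as transcription begins, and as part of the CDK-activating kinase it also phosphorylates the cell cycle CDKs. THZ1 binds CDK7 covalently and is known to act on related transcription kinases too. Transcripts that turn over quickly, such as those of immediate early genes and short-lived transcription factors, lose abundance soon after transcription stops, while stable transcripts persist for many hours.

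The lines carried the markers of their labels with DMSO. ESR1, the oestrogen receptor, lay between 435 and 927.5 on the ER+ arrays and between 29.13 and 32.63 on the MDA-MB-468 arrays. The basal keratin KRT5 lay at 3494 and above in MDA-MB-468 and at 50.89 and below in the ER+ lines. Of 4 leukocyte markers, PTPRC and CD3D were above background on 0 of 7 DMSO arrays, CD14 on 3 and CD79A on 7. CD14 read 284.4 to 297.8 in MDA-MB-468, 22.64 to 28.93 in ZR-75-1 and 24.09 to 24.81 in T47D. Array means ranged from 326.4 to 342.8 in intensity over the series, and 75th percentiles from 140.3 to 231.2. The 2 arrays of a group had a correlation of r = 0.9941 to 0.9962 over the probe sets (a description, since probe sets are no replicates), and a 2-fold gap between them was seen for 0 to 12 members. Whether these arrays came from separate cultures is not labelled. The p-values therefore describe array-to-array spread that could be technical, and 2 arrays per group limit the precision. In bulk RNA, fewer cells of a type and less RNA per cell cannot be told apart.

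The promoters of the first 3 genes in each direction with an entry in the promoter table show the kind of start site from which the most different transcripts arise. The 120 bases before the annotated start are written 5′ to 3′ on the gene's strand, from RefSeq (GRCh38.p14). Capitals mark matches, on either strand, to 6 motifs: TATAAA as in TATA boxes, CCAAT as in boxes of that name, GGGCGG as in GC boxes, CACGTG as in E-boxes, TGACTCA as in AP-1 sites, and TGACGTCA as in cyclic AMP response elements. ELF3 (chr1:202010467-202010586, plus strand), CITED2 (chr6:139374649-139374768, minus strand) and CDKN1B (chr12:12717248-12717367, plus strand) fell further in MDA-MB-468. IFRD1 (chr7:112450388-112450507, plus strand), TUBGCP3 (chr13:112588154-112588273, minus strand) and EIF5 (chr14:103334117-103334236, plus strand) fell further in the ER+ lines.
ELF3: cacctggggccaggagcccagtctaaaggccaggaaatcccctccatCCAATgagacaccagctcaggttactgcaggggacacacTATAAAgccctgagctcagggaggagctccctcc
CITED2: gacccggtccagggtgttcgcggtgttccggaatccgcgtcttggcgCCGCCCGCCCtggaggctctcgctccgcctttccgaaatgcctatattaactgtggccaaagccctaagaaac
CDKN1B: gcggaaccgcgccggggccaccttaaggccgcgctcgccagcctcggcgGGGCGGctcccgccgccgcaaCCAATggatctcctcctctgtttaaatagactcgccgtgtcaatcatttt
IFRD1: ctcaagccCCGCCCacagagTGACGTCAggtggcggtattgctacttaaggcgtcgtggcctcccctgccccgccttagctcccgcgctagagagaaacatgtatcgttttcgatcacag
TUBGCP3: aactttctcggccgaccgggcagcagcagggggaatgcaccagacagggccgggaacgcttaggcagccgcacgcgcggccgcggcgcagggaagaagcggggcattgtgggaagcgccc
EIF5: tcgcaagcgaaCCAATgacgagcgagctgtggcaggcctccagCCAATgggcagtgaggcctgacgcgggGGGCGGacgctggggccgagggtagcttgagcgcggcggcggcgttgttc

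The ELF3 window holds TATAAA from 34 to 29 bases before the start and CCAAT from 73 to 69 bases before it. The IFRD1 window holds TGACGTCA from 100 to 93 bases before the start, and the TUBGCP3 window holds none of the 6 motifs. Over windows from 250 bases before to 50 after the start, TATAAA stood in 12.5% of the 80 promoters found for the 104 genes that were lower in MDA-MB-468 than in each ER+ line. It stood in 7.03% of the 313 promoters found for the 368 genes that were higher, in 4.99% of those of 5633 members and in 12% of all 27305 promoters. GGGCGG stood in 76.2%, 68.7%, 73.2% and 44.6% of the same sets, CCAAT in 46.2%, 41.2%, 38.9% and 35.7%, and CACGTG in 8.75%, 13.1%, 11.3% and 7.43%. TGACTCA stood in 1.25%, 2.24%, 2.36% and 4.92%, and TGACGTCA in 3.75%, 5.11%, 3.76% and 1.98%. These shares are a description of letters in 1 listed start per gene, and a match is not a binding site.

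Against ZR-75-1, most members that differed had lost less in MDA-MB-468. limma called 1862 members higher in MDA-MB-468 (28.3% of members, against 19.9% of all genes tested) and 159 lower (2.42%, against 3.09%), at an adjusted p under 0.05. At least a 2-fold difference was reached by 242 of the higher and 27 of the lower members, and the median difference was 0.15 over members and 0.11 over all genes tested. Against T47D the 2 directions were nearly even, with 637 members lower in MDA-MB-468 (9.69%, against 8.11% of all genes tested) and 544 higher (8.27%, against 6.43%). Among the called members the larger differences lay here on the lower side, with 133 lower and 32 higher by at least 2-fold. The median was 0.04. The 2-fold counts of called members, here and below, have no share over all genes tested beside them and describe members only. Against the mean of both ER+ lines, 327 members were lower (4.97%, against 5.12%) and 1280 higher (19.5%, against 13.9%). Higher genes made up 92.1% of the calls against ZR-75-1 and 46.1% of those against T47D. Quantile normalization moved the first share to 70.9%, and centring each array on its median moved the second to 60.3%. Without MDA-MB-468 DMSO array 1, MDA-MB-468 250 nM array 2 or T47D DMSO array 1, the members higher than in T47D came to 293, 322 and 329, and without the first of these the members higher than in the mean of the ER+ lines came to 763.

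A gene is said here to differ from each ER+ line where it was called in both comparisons in the same direction. This held for 104 members lower in MDA-MB-468 (1.58%, against 1.83% of all genes tested) and 368 members higher (5.6%, against 4.13%), of which 20 and 21 reached 2-fold in both. The share of the lower members is close to the background and that of the higher members is above it. Both comparisons use the same MDA-MB-468 arrays, so their joint calls do not count as agreement between the ER+ lines. For all 104 and all 368 genes, both MDA-MB-468 arrays at 250 nM changed beyond all 4 ER+ arrays. The calls were made on these same arrays, so this separation describes the selected genes and adds no support. Higher genes made up 78% of these calls, and 60.1% after quantile normalization, which raised the lower genes to 189. Without MDA-MB-468 DMSO array 1 the higher genes numbered 210, and without its 250 nM array 2 they numbered 242. Calls in opposite directions against the 2 ER+ lines were made for 137 members. No share over all genes tested was taken for this count, so it is a description only.

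**Figure D1:**
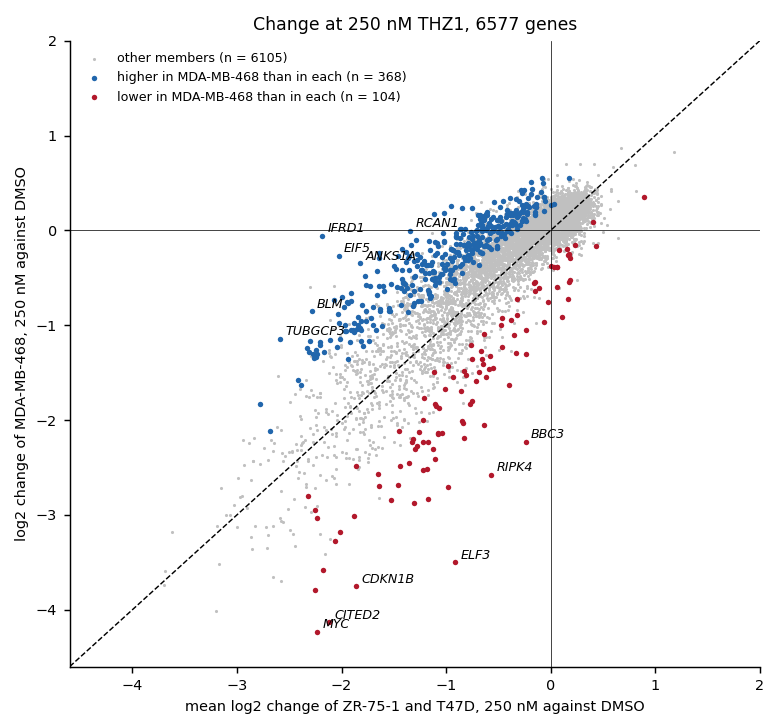
Log2 change at 250 nM THZ1 against DMSO for 6577 members, with the mean of ZR-75-1 and T47D on the x axis and MDA-MB-468 on the y axis; red points are the 104 genes lower and blue points the 368 genes higher in MDA-MB-468 than in each ER+ line, and the dashed line marks equal changes. MYC, CITED2, CDKN1B and ELF3 lie far below the line, and IFRD1 and EIF5 lie far above it (-0.06 and -0.27 on the y axis).

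The 104 lower genes are mostly transcripts that fell in every line and fell most in MDA-MB-468. In MDA-MB-468 99 of them fell (background 30.3% of genes tested) and 1 rose (9.54%). In ZR-75-1 82 fell (42.8%) and 7 rose (9.93%), and in T47D 73 fell (33.7%) and 9 rose (9.62%). All 3 lines shared the fall for 72 genes, and for 16 it was called in MDA-MB-468 alone. The median change was -1.65 in MDA-MB-468, -0.97 in ZR-75-1 and -0.58 in T47D. The 368 higher genes form the reverse picture, since 346 fell in ZR-75-1 and 341 in T47D but 170 in MDA-MB-468, where 36 rose and 162 were not called. Their median change was -0.19 in MDA-MB-468, -0.96 in ZR-75-1 and -0.77 in T47D. Directions within a line depend on how arrays are scaled, because centring moved the median change of all genes tested from -0.07 to 0.14 in MDA-MB-468, from -0.18 to 0.08 in ZR-75-1 and from -0.08 to 0.05 in T47D. After centring 91 of the 104 genes still fell in MDA-MB-468, whereas of the 368 genes 110 fell and 102 rose there, with 294 and 300 falling in ZR-75-1 and T47D. So the smaller loss in MDA-MB-468 can be stated relative to the ER+ lines, and not as a lack of change.

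The largest differences among the lower genes were those of ELF3, MYC and CITED2, which act in transcription, followed by RIPK4, CDKN1B and BBC3. The first 12 genes per direction, ranked by the smaller of the 2 differences, are named below, and since the ranking used the differences their size describes selected genes. ELF3 encodes an epithelial transcription factor of the ETS family. Its intensity was 1120 and 1047 with DMSO and 95.69 and 95.66 at 250 nM in MDA-MB-468. In ZR-75-1 it went from 261 and 270.8 to 118.2 and 134.9, and in T47D from 161.1 and 149.6 to 88.41 and 94.98. The treated arrays lay below the DMSO arrays in every line, and MDA-MB-468, which began highest, ended within the range of the others. The log2 change was -3.50 ± 0.10 in MDA-MB-468, -1.07 in ZR-75-1 and -0.76 in T47D (SE, 2 arrays per group), an 11.3-fold, 2.1-fold and 1.7-fold loss. The difference was -2.43 ± 0.15 against ZR-75-1 (limma adjusted p = 6.47e-08) and -2.74 against T47D (2.25e-08).

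MYC, the transcription factor that drives growth and ribosome production, lost more of its transcript in MDA-MB-468 than in either ER+ line. It stood at 1846 and 1914 with DMSO and at 107 and 93.32 with THZ1 in MDA-MB-468. In ZR-75-1 it stood at 968.4 and 1044 with DMSO and at 211.2 and 200.4 with THZ1. T47D had 757 and 738.4 with DMSO and 152.3 and 179.2 with THZ1. MDA-MB-468 was thus the highest line before and the lowest after treatment, with no overlap between the lines at 250 nM. The losses of 18.8-fold, 4.9-fold and 4.5-fold gave differences of -1.95 ± 0.12 against ZR-75-1 (limma adjusted p = 6.47e-08) and -2.06 against T47D (2.71e-08).

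CITED2 encodes a transcriptional co-regulator that binds CBP and p300. Its arrays read 741.5 and 792.2 with DMSO and 53.26 and 35.78 with the drug in MDA-MB-468. In comparison, ZR-75-1 went from 410.1 and 388.9 to 100.2 and 94.69, and T47D, which began as high as MDA-MB-468, from 765.6 and 776.5 to 153 and 183. The difference was -2.10 ± 0.19 against ZR-75-1 and -1.93 against T47D (limma adjusted p = 2.02e-06 and 6.45e-06). IRF2BPL, a transcriptional regulator with a ubiquitin ligase domain, differed by -1.47 and -1.86, although ZR-75-1 began above MDA-MB-468 (1403 and 1525 against 1083 and 1080). For IRF2BPL the treated arrays read 172.3 and 132.8 in MDA-MB-468, 569.7 and 566.8 in ZR-75-1 and 645.2 and 605.6 in T47D, so that MDA-MB-468 ended lowest. C15orf39, whose function is little described, differed by -1.48 and -1.96. RBM15, a protein of the complex that methylates adenosine in RNA, differed by -1.53 and -1.19, and 1 of its 4 other probe sets went the opposite way in at least 1 comparison. Averaged over all its probe sets, RBM15 stood at -0.49 against ZR-75-1 (limma adjusted p = 0.0554).

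Several regulators of the cell cycle were also lower. CDKN1B encodes p27, an inhibitor of cyclin-dependent kinases. In MDA-MB-468 it read 496.1 and 463.6 with DMSO and 30.96 and 40.88 with THZ1. In ZR-75-1 it went from 765.5 and 862.3 to 228.1 and 205, and in T47D from 450.8 and 437.1 to 123.7 and 129.9. T47D and MDA-MB-468 thus began at similar levels and ended apart, with a log2 change of -3.75 ± 0.13 in MDA-MB-468 against -1.91 and -1.81. The differences were -1.84 and -1.94 (limma adjusted p = 3.79e-06 and 3.43e-06). FBXO5, which encodes EMI1, an inhibitor of the anaphase-promoting complex, fell from 567.3 and 682.2 to 49.27 and 40.58 in MDA-MB-468 and differed by -1.44 and -1.64. PLK2, a polo-like kinase and immediate early gene, differed by -1.23 and -1.57. SERTAD1, which binds CDK4, differed by -1.20 and -1.63.

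RIPK4 and BBC3 differed in another way, since the ER+ lines lost little. RIPK4 encodes a kinase of epithelial differentiation. It fell from 2183 and 2208 to 349.6 and 387.5 in MDA-MB-468, whereas ZR-75-1 went from 185.3 and 164 to 102 and 110.1 and T47D from 252.9 and 249.4 to 185.3 and 191.1. MDA-MB-468 stayed the highest line after treatment, and the differences were -1.86 and -2.16 (limma adjusted p = 3.58e-07 and 6.6e-08). BBC3 encodes PUMA, a pro-apoptotic protein of the BCL2 family and a p53 target. Its arrays read 219 and 237 with DMSO and 49.21 and 47.74 with THZ1 in MDA-MB-468, and they did not overlap. ZR-75-1 held 170.5 and 146.3 with DMSO and 167.2 and 153.4 with THZ1, which overlap, and T47D held 241.5 and 266.9 against 243.1 and 133, which overlap too. The change was -2.23 ± 0.24 in MDA-MB-468, 0.02 in ZR-75-1 (limma adjusted p = 0.958) and -0.50 in T47D (0.11), and the differences were -2.25 ± 0.34 and -1.74 (0.000168 and 0.00253). Its other probe set, with a lowest DMSO log2 level of 5.63, gave differences of only -0.07 and -0.18.

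**Figure D2:**
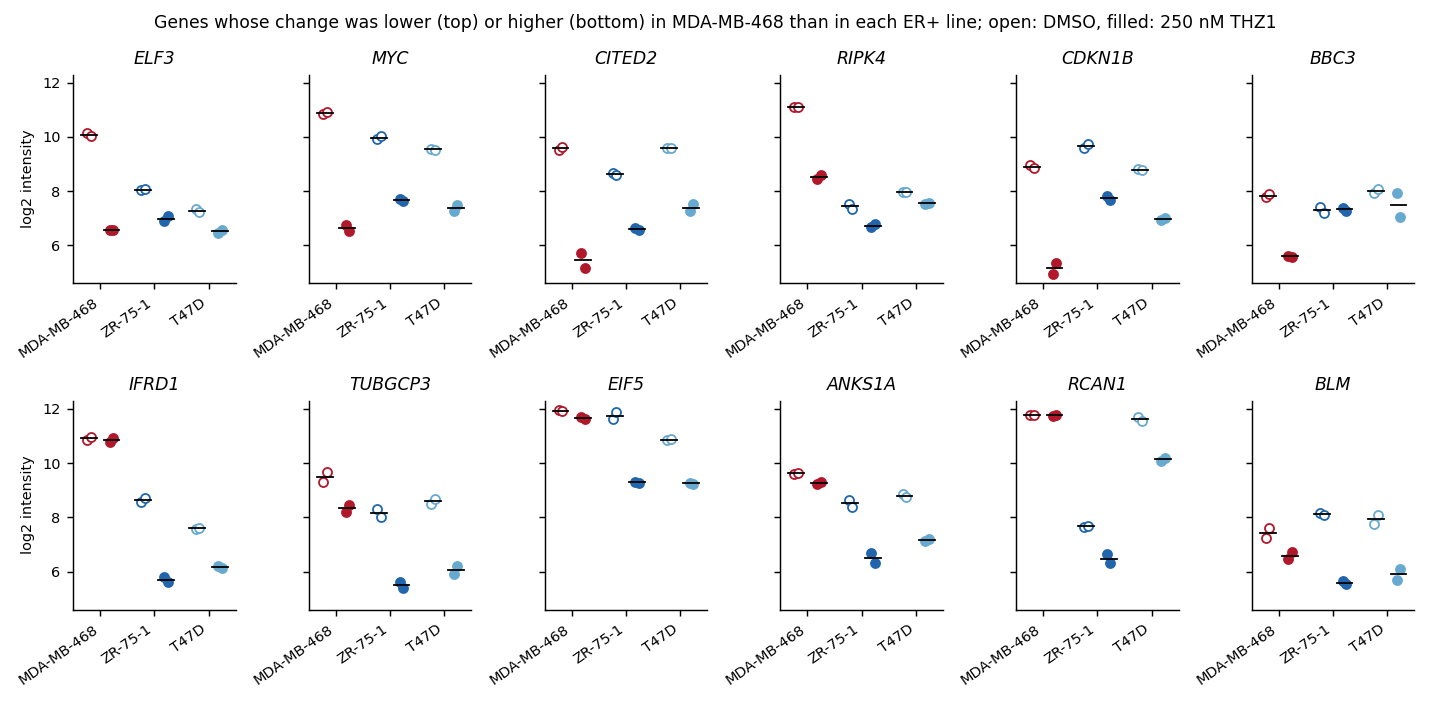
Log2 intensity on each DMSO array (open) and 250 nM array (filled) of MDA-MB-468, ZR-75-1 and T47D, 2 arrays per group with their mean as a bar, for the first 6 genes whose change was lower (top) or higher (bottom) in MDA-MB-468 than in each ER+ line. The filled MDA-MB-468 points drop furthest in the top row and stay near the open ones for IFRD1, EIF5 and RCAN1 in the bottom row.

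Among the 12 leading genes that were higher in MDA-MB-468, the size of the loss there differed. IFRD1, EIF5 and RCAN1 kept most of their signal, while TUBGCP3 went from a mean of 720.1 to 324.6. IFRD1 encodes a transcriptional co-regulator first described as a growth factor response gene. Its intensity was 1873 and 2021 with DMSO and 1782 and 1969 with the drug in MDA-MB-468, which overlap. ZR-75-1 fell from 381.2 and 424.3 to 56.15 and 48.55, and T47D from 192.6 and 197 to 73.49 and 70.86. The change was -0.06 in MDA-MB-468 (limma adjusted p = 0.683), -2.95 in ZR-75-1 and -1.43 in T47D, and the differences were 2.89 ± 0.13 and 1.38 (2.05e-09 and 2.86e-06).

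EIF5 encodes the initiation factor that triggers GTP hydrolysis when the ribosome finds the start codon. In MDA-MB-468 it read 3957 and 3907 with DMSO and 3319 and 3208 with THZ1, a 1.2-fold loss. In ZR-75-1 it fell from 3145 and 3752 to 635 and 616.2, and in T47D from 1853 and 1879 to 623.6 and 607, losses of 5.5-fold and 3.0-fold. The differences were 2.19 ± 0.11 and 1.33 (limma adjusted p = 1.36e-08 and 1.57e-06). RCAN1, an inhibitor of the phosphatase calcineurin, read 3501 and 3510 with DMSO and 3448 and 3545 with THZ1 in MDA-MB-468, which overlap. T47D began at a similar level, with 3318 and 3048, and ended at 1094 and 1170, while ZR-75-1 went from 199.9 and 206.4 to 99.54 and 79.32. The differences were 1.19 and 1.49 (limma adjusted p = 3.56e-06 and 6.44e-07), and 1 of 5 other probe sets went the opposite way.

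TUBGCP3, BLM and ANKS1A fell in all 3 lines, and less in MDA-MB-468. TUBGCP3, a subunit of the gamma-tubulin complex that nucleates microtubules, read 631.3 and 809 with DMSO and 295.5 and 353.6 with THZ1 in MDA-MB-468. It fell to 48.49 and 42.3 in ZR-75-1 and to 60.97 and 74.74 in T47D, from 259.7 to 408.1 with DMSO in these lines. Its differences were 1.53 ± 0.20 and 1.37, with 2 of 4 other probe sets opposite. BLM, the RecQ helicase lost in Bloom syndrome, went from 152.6 and 197.3 to 88.25 and 104.4 in MDA-MB-468. Although MDA-MB-468 began below the ER+ lines (218.2 to 288.3), it ended above them (46.25 to 68.83), and the differences were 1.69 ± 0.23 and 1.17 (limma adjusted p = 8.23e-05 and 0.00298). ANKS1A, an adaptor of ephrin receptors, differed by 1.67 and 1.28, with 2 of 4 other probe sets opposite. As a mean over all probe sets ANKS1A stood at 0.43 and 0.32 (limma adjusted p = 0.0615 and 0.191) and TUBGCP3 at 0.45 against T47D (0.0745).

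The other leading genes that were higher serve the spindle, nucleic acid binding and the Golgi. HAUS6, a subunit of the augmin complex that branches spindle microtubules, differed by 1.15 and 1.45, and by 0.39 against T47D as a mean over its probe sets (limma adjusted p = 0.104). The nucleic acid binding protein gene PURB differed by 1.17 from both lines, and NSRP1, a splicing regulator, by 1.42 and 1.08. ZBTB41, a zinc finger gene, differed by 1.29 and 1.11, and GOLPH3L, a Golgi protein gene, by 1.08 and 1.26. DLEU1, a long noncoding RNA, stood at 0.26 in MDA-MB-468 (limma adjusted p = 0.107) and fell in ZR-75-1 (-1.05) and T47D (-0.86). Of the 24 leading genes, RBM15, TUBGCP3, ANKS1A and HAUS6 lost at least 1 call under 1 alternative, the mean of all probe sets. The other 20 kept both calls under every alternative that refit the model. Alternatives that only changed the membership reused the same fit, so they could not end a call. ELF3 (DMSO log2 7.28 in T47D) leaves the members at a level of 8. With DMSO levels within 1 log2 unit, ELF3 and MYC (9.55 in T47D, 10.88 in MDA-MB-468) both leave them.

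The number of genes with opposite directions in different lines depended on scaling. On the values as deposited 7 of the 104 genes rose in ZR-75-1 and 9 in T47D, and 1 rose in MDA-MB-468. After centring 14 of the 104 rose in ZR-75-1 and 16 in T47D, and 102 of the 368 rose in MDA-MB-468. Among the 368 genes, 6 rose in MDA-MB-468 and fell in both ER+ lines on the values as deposited. They are TSC22D3, a glucocorticoid-induced leucine zipper gene (0.34 in MDA-MB-468, -0.33 in ZR-75-1, -0.44 in T47D), BAG1, a co-chaperone gene (0.33, -0.24, -0.42), and RFC5, a clamp loader subunit (0.31, -0.36, -0.24). The others are the mitochondrial ribosomal protein gene MRPS18C (0.22, -0.31, -0.23), the initiation factor gene EIF2S2 (0.17, -0.38, -0.22) and UTP4, of the small subunit processome (0.16, -0.54, -0.19). The differences of TSC22D3 were 0.67 and 0.78 (limma adjusted p = 0.000382 and 0.000212). These 6 genes did not keep all 3 calls within the lines under every setting. The number that did was 0 after centring or quantile normalization, 2 without MDA-MB-468 DMSO array 1, and 4 without T47D DMSO array 1, without T47D 250 nM array 1, with the mean of all probe sets or without the trend. For TSC22D3 the change in ZR-75-1 became -0.08 (limma adjusted p = 0.447) after centring. UTP4 lost its call against T47D without T47D DMSO array 1 (0.28, limma adjusted p = 0.058).

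Genes that differed from 1 ER+ line only are those called against it and between the ER+ lines, but not called against the other. Of 6577 members, 937 were higher than in ZR-75-1 alone and 335 lower than in T47D alone. The smaller sets held 21 members lower than in ZR-75-1 alone and 55 higher than in T47D alone. Over all genes tested, the background shares of these 4 sets were 9.47%, 3.85%, 0.451% and 0.807%, in the same order. EDN1, the vasoactive peptide endothelin-1, leads those lower than in T47D alone. It fell from 691.6 and 694.8 to 97.56 and 98.2 in MDA-MB-468 and from 601.6 and 633.2 to 95.31 and 103.7 in ZR-75-1, and from 595.2 and 614.2 to 387.6 and 384.9 in T47D. The 3 lines began close together and T47D alone stayed high, with a difference of -2.18 ± 0.10 (limma adjusted p = 3.68e-09) against -0.19 from ZR-75-1 (0.199).

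BAMBI, a decoy receptor of TGF-beta signalling, differed from T47D by -2.16, the transcription factor gene CEBPB by -1.92, and MARS2, the mitochondrial methionyl-tRNA synthetase gene, by -1.86. CLK1, a kinase of splicing factors, fell in MDA-MB-468 (-1.82) and ZR-75-1 (-1.70) and stood at 0.01 in T47D, whose arrays overlapped (198.5 and 257.1 against 263.6 and 197.4). After quantile normalization EDN1 and BAMBI were also called lower than in ZR-75-1 (-0.41 and -0.52). The same call came for BAMBI without ZR-75-1 DMSO array 2 (-0.43) and for BAMBI and MARS2 without ZR-75-1 250 nM array 2 (-0.49 and -0.75).

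ZR-75-1 alone lost more of MTMR12, a myotubularin family gene (-2.69, against -0.95 in MDA-MB-468 and -1.54 in T47D), of the deubiquitinase gene USP38 (-2.78, -1.04, -1.38) and of ZNF614 (-2.89, -1.33, -1.71). MAPK6, which encodes ERK3 (-2.34, -0.78, -1.002), and the cell cycle factor gene E2F5 (-2.60, -1.06, -1.34) followed. For MAPK6 the DMSO arrays of ZR-75-1 read 738.1 and 727.7 against 253.3 and 265.8 in MDA-MB-468, and the treated arrays 141.4 and 148 against 159.9 and 142.5, so the lines that began apart ended together. Against ZR-75-1, opposite probe sets were found for MTMR12 (1 of 3), USP38 (1 of 2) and ZNF614 (2 of 3). The remaining USP38 probe set stood at 0.90 against ZR-75-1 and at -0.04 against T47D. Without MDA-MB-468 250 nM array 1 or T47D 250 nM array 2, ZNF614 was also higher than in T47D (0.58 and 0.59).

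In the smaller sets, MDA-MB-468 lost more than ZR-75-1 alone of the BMP target ID1 (difference -1.16), of the Kruppel-like factor gene KLF6 (-1.15), of THAP10 (-0.90) and of the AP-1 subunit gene JUN (-0.82). CYP1A1, the xenobiotic-metabolising enzyme gene, ranks before them at -1.45. It was above background on 0 of 2 ZR-75-1 arrays at 250 nM, so its fall there is only a lower bound and a greater loss in MDA-MB-468 is not established. Its mean went from 588.3 to 36.5 in MDA-MB-468 and from 155.9 to 26.8 in ZR-75-1. Against ZR-75-1 the other probe sets of ID1 (-0.60 and -0.56) and JUN (-0.51, -0.19 and -0.23) kept the sign. For KLF6, 2 of 4 other probe sets had the opposite sign against both lines. Against T47D, where none of these genes was called, the sign was opposite on other probe sets of ID1 (2 of 2) and JUN (3 of 3). Without MDA-MB-468 250 nM array 1, ID1 was also lower than in T47D (-0.59, limma adjusted p = 0.0173). T47D alone lost more of SMC5, a subunit of the SMC5/6 complex (-1.31, against 0.19 in MDA-MB-468), of the prefoldin gene PFDN4 (-0.77, against 0.35) and of TAF2, a subunit of TFIID (-1.16, against -0.14). For SMC5, 2 of 2 other probe sets went the opposite way in at least 1 comparison, and against T47D they stood at 0.04 and -0.31 beside 1.5 for the brightest. MYO9A and METTL9 complete the 5, at differences of 0.94 and 0.91, and MYO9A turned to -0.20 as a mean over its probe sets. Against T47D the other probe set of TAF2 stood at 0.24 beside 1.02 for the brightest, and that of PFDN4 at 0.20 beside 1.12. The 4 other probe sets of METTL9 stood at 0.10 to 0.38. The MYO9A call was lost without MDA-MB-468 DMSO array 1 or T47D DMSO array 2 (0.72 and 0.81), and the PFDN4 call also without MDA-MB-468 250 nM array 2 or T47D 250 nM array 1 (0.81 to 1.04 over the 4). METTL9 lost its call without MDA-MB-468 DMSO array 1, MDA-MB-468 250 nM array 2 or any T47D array (0.66 to 0.98).

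Of 13 genes chosen for their standing in breast cancer or as the drug target, 7 were members. SOX9, EGFR, FOSL1, ESR1 and KLF5 lay under the DMSO level in at least 1 line, and FOXC1 was not analysed here. CDK7, the target, fell by 0.93 in MDA-MB-468, by 1.25 in ZR-75-1 and by 0.73 in T47D on the log2 scale. Its difference from ZR-75-1 was 0.32 (limma adjusted p = 0.0352), and that from T47D was -0.20 (0.219). The call against ZR-75-1 was lost after centring (0.27, limma adjusted p = 0.125) and quantile normalization (0.08, 0.648), and without any 1 of the MDA-MB-468 arrays, either ZR-75-1 DMSO array or ZR-75-1 250 nM array 2 (0.27 to 0.35). Without T47D 250 nM array 1 the difference from T47D was called (-0.33, 0.0371). MCL1, the anti-apoptotic BCL2 relative with a short-lived transcript, fell by 1.98 in MDA-MB-468 and by 1.80 in ZR-75-1, and by 1.23 in T47D. The difference was -0.18 against ZR-75-1 (limma adjusted p = 0.345) and -0.75 against T47D (0.000658), and 2 of 5 other probe sets went the opposite way. Quantile normalization (-0.46, limma adjusted p = 0.0229) or leaving out MDA-MB-468 250 nM array 1 (-0.35, 0.024) brought a call against ZR-75-1.

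The luminal transcription factor genes GATA3 and FOXA1 fell in all 3 lines, and least in T47D. GATA3, from 330.6 and 324.5 to 127.9 and 121 in MDA-MB-468, stood at 3761 and 3726 after treatment in T47D, from 4653 and 4818. Its difference was 0.24 against ZR-75-1 (limma adjusted p = 0.184) and -1.06 against T47D (2.71e-05), and without ZR-75-1 DMSO array 1 the first was called (0.41, 0.00989), as after quantile normalization (0.45, 0.0152). FOXA1, a pioneer factor of luminal cells, went from 261.7 and 292.6 to 50.61 and 53.75 in MDA-MB-468 and differed by -0.08 (0.696) and -0.95 (4.1e-05). Its other probe set went the opposite way, and the mean of both stood at 0.50 (0.0155) and -0.07 (0.787). CCND1, cyclin D1, was called in opposite directions, higher than in ZR-75-1 (1.07, limma adjusted p = 5.04e-07) and lower than in T47D (-0.38, 0.00456). Centring ended the second call (-0.31, 0.0943). The 3 other probe sets of CCND1 stood at -0.15, 0.62 and 0.06 against ZR-75-1. The first of these, opposite in sign, had a lowest DMSO log2 level of 8.03. Against T47D the 3 stood at -0.47, -0.22 and -0.73.

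Among gene lists chosen by function, immediate early genes and TNBC-associated regulators had the lowest medians against both lines. Of 16 immediate early members, 9 were lower in MDA-MB-468 than in each ER+ line (background 1.83%) and 1, the transcription factor gene SRF, was higher (4.13%). The median difference was -0.83 against ZR-75-1 and -0.90 against T47D, beside 0.15 and 0.04 over all members. Besides MYC, CITED2 and PLK2 the lower genes were IER5 (-1.37 and -1.07), IER2 (-1.01 and -1.13), IER3 (-0.61 and -0.87), the stress sensor GADD45B (-0.84 and -1.28), KLF10, a TGF-beta response factor (-0.88 and -1.51), and ZFP36L1, which promotes decay of AU-rich mRNA (-0.25 and -0.51). Over the alternatives that refit the model 7 to 12 of the 16 were lower. SRF lost a call after quantile normalization (0.43 against ZR-75-1, limma adjusted p = 0.0648) and without T47D 250 nM array 2 (0.37 against T47D, 0.0647). GADD45B lost its call against ZR-75-1 without MDA-MB-468 DMSO array 2, MDA-MB-468 250 nM array 1, ZR-75-1 DMSO array 2 or ZR-75-1 250 nM array 1 (-0.76 to -0.60). ZFP36L1 lost its call against ZR-75-1 without any 1 of these but MDA-MB-468 250 nM array 1, and without MDA-MB-468 DMSO array 1, MDA-MB-468 250 nM array 2 or ZR-75-1 DMSO array 1 (-0.25 to -0.18), and stood at 0.11 and 0.16 as a mean over probe sets. Of 5 TNBC-associated regulators, ELF3 and MYC were lower than in each line, with medians of -1.15 and -0.61. MYC stands in both lists, and these lists were drawn up with earlier results of these arrays known.

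**Figure D3:**
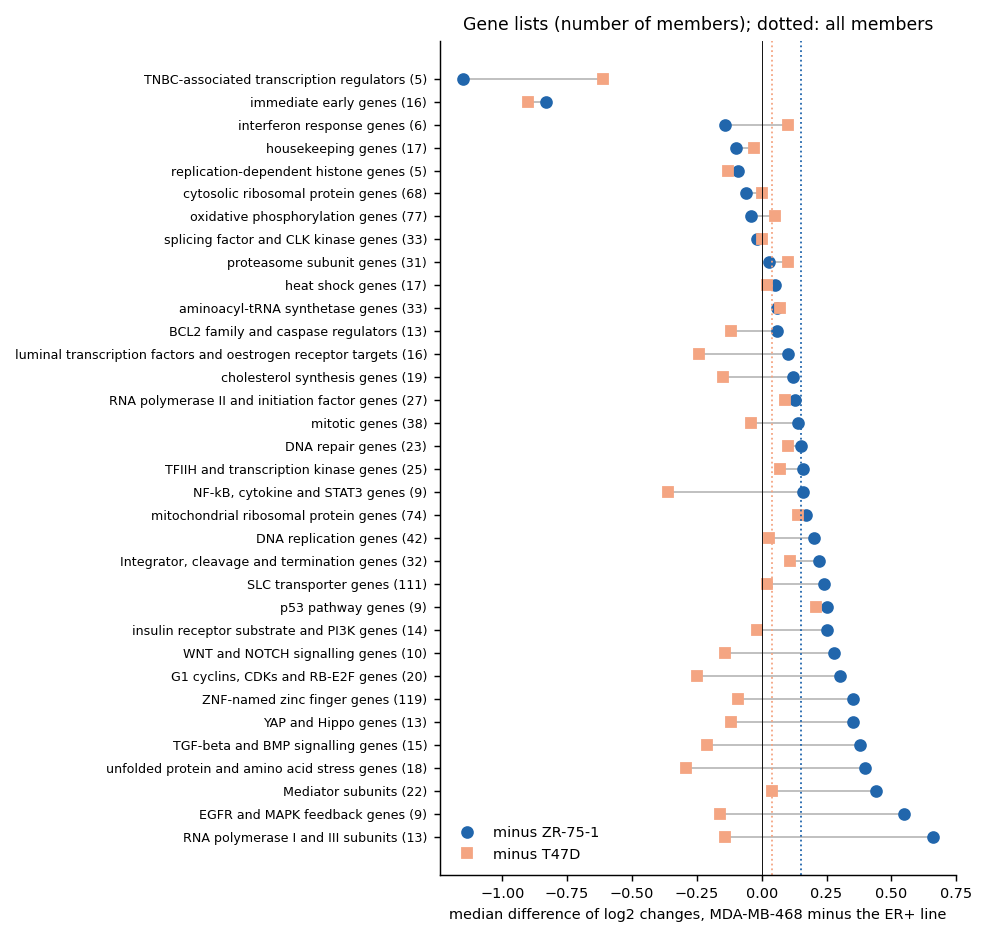
Median difference of log2 changes, MDA-MB-468 minus ZR-75-1 (circles) and minus T47D (squares), for the gene lists with at least 5 members, whose numbers stand in brackets; dotted lines mark the medians over all members (0.15 and 0.04). Immediate early genes and TNBC-associated regulators lie far to the left on both scales, and RNA polymerase I and III subunits have the circle furthest to the right (0.66) but a square left of 0 (-0.14).

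In the signalling lists the counts are read against 1.83% of all genes tested lower and 4.13% higher than in each line. In the NF-kB, cytokine and STAT3 list, 2 of 9 members were lower, NFKBIA, the inhibitor of NF-kB (-1.63 and -1.04), and NFKBIZ (-0.65 and -1.45). NFKBIA read 437.7 and 444 with DMSO and 83.66 and 70.73 with THZ1 in MDA-MB-468, against 1508 and 1642 and then 898 and 806.1 in ZR-75-1. Among 15 TGF-beta and BMP genes, the repressor TGIF1 (-1.12 and -2.01) and the BMP target ID3 (-1.85 and -0.76) were lower, and TGIF2 (1.22 and 0.56) and the ubiquitin ligase gene SMURF2 (0.64 and 0.36) higher. SMURF2 lost its call against T47D without MDA-MB-468 250 nM array 2 (0.33, limma adjusted p = 0.0553). ID3 lost its call against T47D without MDA-MB-468 DMSO array 2, MDA-MB-468 250 nM array 1, T47D DMSO array 2 or T47D 250 nM array 1 (-0.75 to -0.48). TGIF1 and TGIF2, a related pair, thus went opposite ways.

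Of 13 YAP and Hippo genes, 2 were higher, the kinase gene LATS2 (0.96 and 0.85) and YAP1 (1.02 and 0.53), and neither was called in both comparisons as a mean over probe sets. The YAP1 call against T47D was also lost without MDA-MB-468 DMSO array 1, MDA-MB-468 250 nM array 2, T47D DMSO array 2 or T47D 250 nM array 2 (0.35 to 0.50). Of 9 EGFR and MAPK feedback genes 1 was higher, EPHA4 (0.60 and 0.53), which was above background on 0 of 2 ZR-75-1 arrays at 250 nM. EPHA4 was not called in both comparisons as a mean over probe sets. Of its 3 other probe sets 2 went the opposite way in at least 1 comparison. Its call against T47D was lost without MDA-MB-468 DMSO array 1, MDA-MB-468 250 nM array 1, T47D DMSO array 2 or T47D 250 nM array 1 (0.47 to 0.52). DDIT4, an inhibitor of mTORC1, was the 1 lower gene of 14 in the insulin and PI3K list (-0.80 and -1.30), and lost its call without ZR-75-1 DMSO array 2 (-0.73, limma adjusted p = 0.05). WNT and NOTCH genes had 0 of 10 by limma, and 1 higher at an unadjusted p under 0.05. In the luminal list of 16 members, the co-repressor gene TLE3 (1.25 and 0.57) and SPDEF (0.97 and 0.41) were higher than in each line, and 7 members were lower than in T47D, beside 8.11% of all genes tested. TLE3 was not called against T47D as a mean over its probe sets (0.07, limma adjusted p = 0.716). The SPDEF call against T47D was lost without any 1 of 8 arrays, namely MDA-MB-468 DMSO array 2, MDA-MB-468 250 nM array 1 and every ZR-75-1 DMSO and T47D array (0.25 to 0.46). The 4 basal and mesenchymal members and 2 HOX members had 0 genes differing from each line by limma, also at an unadjusted p under 0.05, and 0 of the immune and stromal markers were members.

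In the apoptosis and cell cycle lists the calls fell on single regulators. Beside BBC3, of 13 BCL2 family and caspase regulators the anti-apoptotic BCL2L2 was higher (0.74 and 0.61, but 0.04 and -0.06 as a mean over probe sets). Of 9 p53 pathway genes, the phosphatase gene PPM1D was lower (-0.58 and -0.86) with BBC3, and MDM4, a p53 inhibitor, was higher (0.62 and 0.78). As a mean over its probe sets MDM4 was not called against T47D (0.15, limma adjusted p = 0.404), nor PPM1D against ZR-75-1 (-0.09, 0.728). PPM1D also lost its call against ZR-75-1 without MDA-MB-468 DMSO array 2, MDA-MB-468 250 nM array 2 or ZR-75-1 250 nM array 1 (-0.46, -0.51 and -0.37). Among 20 G1 genes, CDKN2D, which encodes the CDK4 inhibitor p19, was lower with CDKN1B (-0.72 and -1.06). CDKN2D fell from 832.9 and 862.5 to 515.9 and 512 in MDA-MB-468, held 167.4 and 164.3 against 164.9 and 166.2 in ZR-75-1, and rose from 175.8 and 182.7 to 230.5 and 224.1 in T47D. Of 38 mitotic genes 3 were lower, namely FBXO5, WEE1, the kinase that restrains CDK1 (-0.61 and -1.82), and AURKA, the Aurora A kinase gene (-0.29 and -0.81). The AURKA call against ZR-75-1 was lost without MDA-MB-468 DMSO array 2 (-0.25, limma adjusted p = 0.0614), ZR-75-1 DMSO array 2 (-0.27, 0.0513) or ZR-75-1 250 nM array 2 (-0.27, 0.0562).

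DNA replication and repair genes that differed from each line were all higher in MDA-MB-468. Of 42 replication genes 5 were higher (background 4.13%) and 0 lower, namely POLD3, a subunit of polymerase delta (1.74 and 0.94), PRIM1, the primase (1.30 and 0.48), RFC5, and the origin recognition genes ORC3 (0.66 and 0.46) and ORC5 (1.52 and 0.43). POLD3 read 383.2 and 478.4 with DMSO and 270.5 and 244.6 with THZ1 in MDA-MB-468, and 337.9 and 319.4 and then 51.69 and 67.47 in ZR-75-1. T47D lay between, with 338.7 and 324.8 and then 98.68 and 109. The list's medians were 0.20 and 0.03, near those of all members. Quantile normalization left 3 higher, as did leaving out MDA-MB-468 DMSO array 1, either of its 250 nM arrays, either T47D DMSO array or T47D 250 nM array 2. ORC3 and ORC5 are the genes that lost a call there.

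Of 23 DNA repair genes 5 were higher and 0 lower, and over the alternatives that refit the model 4 to 6. They are BLM, MMS22L, which acts at stalled forks (1.71 and 0.88), the exonuclease gene EXO1 (1.03 and 0.67) and the Fanconi anaemia genes FANCF (0.68 and 0.83) and FANCL (0.40 and 0.29). FANCL lost its call against T47D without any 1 of the MDA-MB-468, ZR-75-1 DMSO or T47D arrays (0.25 to 0.33) and after centring or quantile normalization. MMS22L went from 363.8 and 402.7 to 287.1 and 260.3 in MDA-MB-468, from 218.7 and 190.2 to 42.28 and 46.74 in ZR-75-1, and from 298.9 and 299.9 to 121.3 and 111.6 in T47D. The share of 5 in 23 stands above the background, and the medians of 0.15 and 0.10 lie near those of all members.

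The machinery of transcription itself was divided. Of 25 TFIIH and transcription kinase genes, GTF2H1, the p62 subunit of TFIIH, was higher (1.38 and 1.07), as was CDK19 of the Mediator kinase module (0.53 and 0.47). GTF2H1 read 538.4 and 520.5 with DMSO and 469.1 and 456.8 with THZ1 in MDA-MB-468, whereas it fell to 205.4 and 240.9 in ZR-75-1 and to 122.4 and 116.8 in T47D. CDK19 lost both calls after quantile normalization (0.16 and 0.28, limma adjusted p = 0.43 and 0.169). Against T47D it also lost its call without MDA-MB-468 DMSO array 2, MDA-MB-468 250 nM array 1, either T47D DMSO array or T47D 250 nM array 1 (0.35 to 0.47). Of 27 RNA polymerase II and initiation factor genes 0 differed from each line by limma, and 2 were higher at an unadjusted p under 0.05. Among 22 Mediator subunits, MED13 (1.27 and 1.02) and MED27 (0.42 and 0.43) were higher and MED26 lower (-0.60 and -1.53), and 12 were higher than in ZR-75-1, with medians of 0.44 and 0.04. MED27 was not called against ZR-75-1 after centring (0.37, 0.0649). As a mean over probe sets MED26 was not called against ZR-75-1 (-0.23, limma adjusted p = 0.194), nor was MED27 against either line (0.17 and -0.09).

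Among 32 Integrator, cleavage and termination genes, INTS2, INTS7 and INTS12 of the Integrator complex and the poly(A) polymerase gene PAPOLA were higher and CLP1 lower (-0.38 and -1.18). INTS7 differed most (1.22 and 0.93), and 2 to 5 were higher over the alternatives that refit the model, with 2 left without either MDA-MB-468 250 nM array or T47D DMSO array 1. CLP1 lost its call against ZR-75-1 without any 1 of the MDA-MB-468 arrays, either ZR-75-1 DMSO array or ZR-75-1 250 nM array 1 (-0.42 to -0.24), and without a filter on low values (-0.39, limma adjusted p = 0.0559). PAPOLA lost a call without any 1 of 9 arrays, namely the MDA-MB-468 arrays, ZR-75-1 DMSO array 1, ZR-75-1 250 nM array 2, the T47D DMSO arrays and T47D 250 nM array 1. INTS2 lost its call against ZR-75-1 without MDA-MB-468 250 nM array 2, ZR-75-1 DMSO array 2 or ZR-75-1 250 nM array 2 (0.42 to 0.53), and INTS12 its call against T47D without MDA-MB-468 DMSO array 2, MDA-MB-468 250 nM array 1, T47D DMSO array 1 or either T47D 250 nM array (0.36 to 0.42). Of 33 splicing genes the kinase gene CLK2 was lower (-0.44 and -1.29) and SRSF3 higher (0.50 and 0.33). SRSF3 lost its call against T47D without any 1 of the MDA-MB-468 arrays, T47D DMSO array 1 or either T47D 250 nM array (0.28 to 0.38). RNA polymerase I and III subunits had the largest median of any list against ZR-75-1 (0.66, with 9 of 13 higher) but -0.14 against T47D, and POLR1A and POLR3C were higher than in each. No subunit of this list was called against each line without MDA-MB-468 DMSO array 1, either T47D DMSO array or T47D 250 nM array 1.

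Among stress and metabolic lists, ATF4, the factor of the integrated stress response, was the 1 higher gene of 18 (0.98 and 0.68). It held 6147 and 6657 against 5839 and 6353 in MDA-MB-468 and fell by 1.05 in ZR-75-1 and by 0.75 in T47D. The heat shock factor gene HSF1 was the 1 lower gene of 17 (-0.36 and -0.35), a call that centring and quantile normalization ended against T47D (-0.28 and -0.36, limma adjusted p = 0.187 and 0.069). Leaving out any 1 of the 12 arrays except ZR-75-1 250 nM array 1 ended at least 1 of the HSF1 calls (-0.40 to -0.30). Of 111 SLC transporter genes, the zinc exporter SLC30A1 was lower (-0.84 and -1.30) and 4 were higher, among them SLC35B3 (0.90 and 0.92), which was not called as a mean over its probe sets. The higher transporters came to 2 without MDA-MB-468 DMSO array 1 or T47D 250 nM array 1, and to 1 without T47D DMSO array 2. Of 119 ZNF-named zinc finger genes 8 were higher, ZNF189 (0.82 and 0.89) and ZNF140 (0.80 and 0.83) among them, and 1 was lower, ZNF622 (-0.56 and -1.11). That list split by line, with 47 higher than in ZR-75-1 and 26 lower than in T47D, beside 19.9% and 8.11% of all genes tested and 28.3% and 9.69% of members. ZNF106, ZNF268 and ZNF611 lost a call after centring and after quantile normalization. Leaving out 1 array ended a call for these 3 and for ZNF32, and 6 to 10 were then higher.

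Lists of housekeeping functions, and the list of interferon response genes, held few genes that differed from each ER+ line. Among 68 cytosolic ribosomal protein genes, 77 oxidative phosphorylation genes, 31 proteasome subunits, 19 cholesterol synthesis genes, 17 housekeeping genes and 6 interferon response genes, 0 differed from each ER+ line by limma at an adjusted p under 0.05. At an unadjusted p under 0.05, 0 of these 218 genes were lower and 3 higher than in each line. Ribosomal protein genes had medians of -0.06 and 0.00, and oxidative phosphorylation genes of -0.04 and 0.05. Of 74 mitochondrial ribosomal protein genes 1 was higher, MRPS18C (background 4.13%), and 11 at an unadjusted p under 0.05. That count came to 5 without MDA-MB-468 DMSO array 2, to 3 without MDA-MB-468 250 nM array 1, to 2 without MDA-MB-468 250 nM array 2 or T47D 250 nM array 1, and to 6 with the mean of all probe sets, where MRPS18C itself was not called (0.40 and 0.37). Of 33 aminoacyl-tRNA synthetase genes 1 was higher, EARS2 (0.72 and 0.37). Without any 1 of MDA-MB-468 DMSO array 1, its 250 nM arrays, T47D DMSO array 1 or the T47D 250 nM arrays, EARS2 was not called against T47D (0.32 to 0.40). Of 5 histone genes 1 was lower, H1-10 (-0.78 and -0.64), which is a replication-independent linker histone. The medians of 14 of the 36 lists changed sign against at least 1 line under centring or quantile normalization, and neither immediate early genes nor TNBC-associated regulators, DNA repair genes, Mediator subunits or RNA polymerase I and III subunits are among them.

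A property that the choice of members did not use, the length of the gene from start to end in RefSeq GRCh38.p14, differed between the sets. The 104 lower genes had a median length of 15.5 kb (quartiles 6.04 and 27.9) and the 368 higher genes of 47.4 kb (20.1 and 101.1), beside 29.4 kb over members. Genes under 10 kb made up 31.7% of the lower and 13.9% of the higher genes, against 20.6% of members. Genes over 100 kb made up 6.73%, 25.3% and 15.0%. MYC (7.52 kb), ELF3 (6.6 kb), CITED2 (2.84 kb) and IRF2BPL (4.17 kb) are short, while ANKS1A (208.7 kb), TUBGCP3 (120.6 kb) and BLM (98.8 kb) are long, and EIF5 (10.8 kb) and PURB (9.23 kb) are short genes among the higher ones. Over the alternatives that refit the model the median lay between 13.3 and 17.9 kb for the lower and between 35.4 and 50.9 kb for the higher genes, the lowest of the latter as a mean over all probe sets. Genes are not independent replicates, and these shares carry no test.

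**Figure D4:**
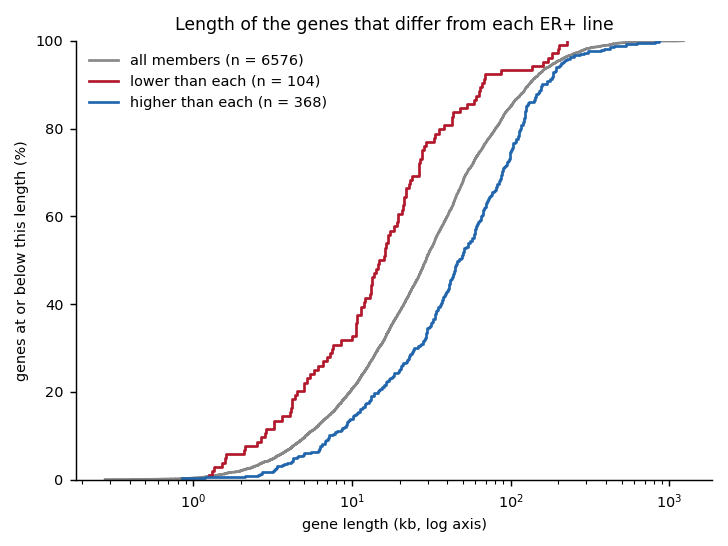
Cumulative share of genes at or below a given length in kb (log axis) for the 104 genes lower (red) and 368 genes higher (blue) in MDA-MB-468 than in each ER+ line and for the members with a length (grey). Over most of the range the red curve lies to the left and the blue curve to the right of the grey one, with medians of 15.5, 47.4 and 29.4 kb.

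The DMSO levels of the higher genes were close to those of all members, while the lower genes began lower in the ER+ lines than members did. Median log2 levels of the lower genes were 9.05 in MDA-MB-468, 8.66 in ZR-75-1 and 8.69 in T47D. Those of the higher genes were 8.88, 8.75 and 8.90, and of all members 8.95, 8.88 and 9.02. MDA-MB-468 had the highest DMSO level of the 3 lines for 46 of the 104 lower, 133 of the 368 higher and 2267 of the 6577 members. It had the lowest for 26, 132 and 2380 of them. At the limit of membership, SLC35B4, HIP1 and ZNF641 lay just inside the level of 7 and had differences of 0.21 and 0.36, 0.06 and 0.44, and 1.64 and 0.82. ZNF503, NSMCE3 and H2AC6 lay just outside, with -0.50 and -0.54, -0.18 and -0.36, and 0.14 and 0.10. Where the lowest DMSO mean over the lines barely reached 7, as for ZNF641, the treated arrays read as little as 30.41, and in ZR-75-1 ZNF641 was above background on 1 of 2 of them.

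At 50 nM fewer members were called between the lines. Against ZR-75-1, 154 members were lower in MDA-MB-468 (2.34%, against 1.69% of all genes tested) and 8 higher (0.122%, against 0.15%). Against T47D, 144 were lower (2.19%, against 1.72%) and 32 higher (0.487%, against 0.419%). The median changes of the 104 lower genes at 50 nM were -0.20 in MDA-MB-468, 0.11 in ZR-75-1 and 0.07 in T47D, and those of the 368 higher genes -0.16, -0.18 and -0.25. ELF3 and MYC already differed at that dose, ELF3 by -0.85 and -1.13 and MYC by -0.56 and -0.61 (limma adjusted p = 0.00764, 0.0011, 0.024 and 0.0155). CITED2 stood at -0.53 and -0.61 (0.195 and 0.129) and CDKN1B at -0.45 and -0.35 (0.254 and 0.376). IFRD1 stood at 0.50 and 0.52 (0.0555 and 0.046), and EIF5 at 0.16 and 0.14 (0.559 and 0.582). These values share the DMSO arrays with those at 250 nM and are set side by side only.

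BT-549, the other TNBC line, has 1 array per dose and no test, and its arrays took no part in the fit or in the DMSO level of the members. They entered the mean that chose each gene's probe set and the median intensity behind the filter. At 250 nM the 104 genes had a median change of -1.20 in BT-549 (quartiles -1.87 and -0.29), the 368 genes of -0.23, and all members of -0.03. A loss of at least 2-fold was seen for 56 of the 104 genes (53.8%), for 35 of the 368 (9.51%) and for 668 of the 6577 members (10.2%). For CITED2 (-3.73), FBXO5 (-3.72), PLK2 (-3.37), SERTAD1 (-2.09) and RBM15 (-2.40) the BT-549 value lay near that of MDA-MB-468. For ELF3 (-0.76) and BBC3 (-0.02) it lay within or near the ER+ values, and both genes stood below a log2 level of 7 on the BT-549 DMSO array (5.76 and 6.99). IRF2BPL, which began above that level in BT-549, went from an intensity of 879.5 to 461.9 there. That loss lay near the one in T47D (means 1230 and 625.4) and far from the one in MDA-MB-468 (1081 and 152.5). MYC (-2.73) and CDKN1B (-2.67) lay between. Among the genes that were higher, IFRD1 (-1.004) and EIF5 (-1.93) stood nearer to the T47D value than to that of MDA-MB-468 in BT-549. ZBTB41 (0.00), GOLPH3L (-0.01), HAUS6 (-0.16), TUBGCP3 (-0.30) and ANKS1A (-0.29) stood above the values of all 3 lines.

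**Figure D5:**
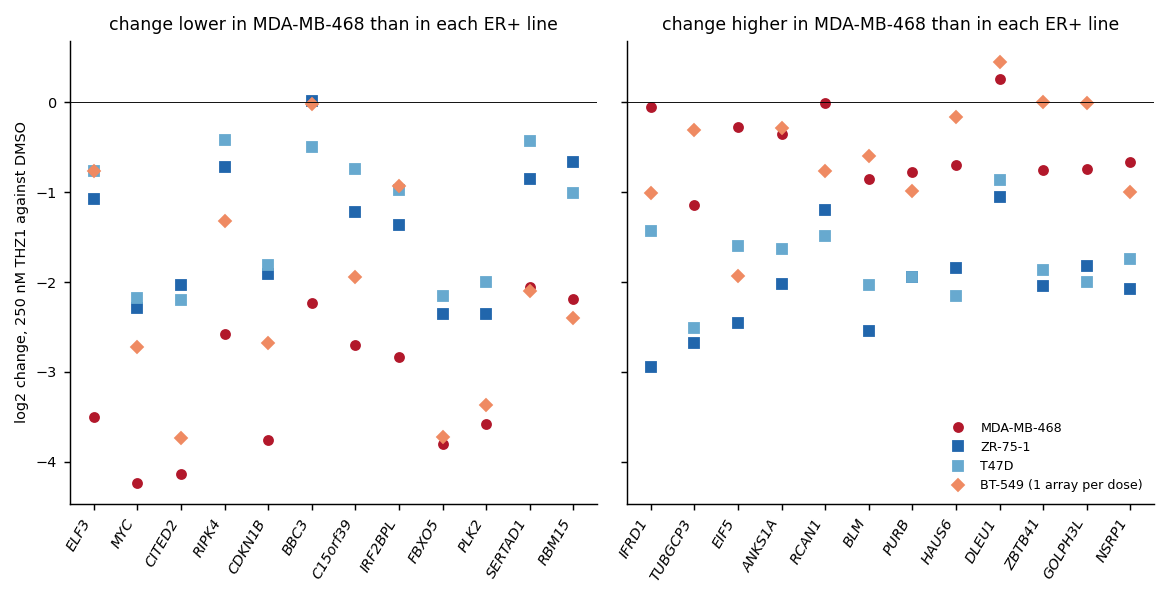
Log2 change at 250 nM THZ1 against DMSO of the 12 leading genes in each direction, for MDA-MB-468 (circles), ZR-75-1 and T47D (squares; means of 2 arrays per group) and BT-549 (diamonds, 1 array per dose). The BT-549 diamonds lie beside the MDA-MB-468 circles for FBXO5, PLK2 and SERTAD1 and beside an ER+ square for ELF3, IRF2BPL and BBC3.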

How the data were processed

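Expression was measured on 21 Affymetrix PrimeView arrays of 4 breast cancer cell lines. The deposited values are MAS5 intensities on a linear scale, per the submitters' processing notes, and the software version and scaling target are not given in the sources used here. Per the labels' protocols, synthetic control RNA was added in proportion to cell number, but a fixed 100 ng of total RNA was amplified and no probe set of these controls was used here, so values are not per cell. Of 49395 probe sets 44994 had 1 gene symbol, 1832 several and 2569 none, and each of 18132 genes was read from its brightest probe set by mean over all arrays. Intensities under 1 were set to 1 and log2 taken. A gene was tested if its mean in some group was at least the median intensity of the whole table (57.4). limma 3.58.1 in R 4.3.3 was fitted to 18 arrays in 9 groups of 2 with a mean-variance trend, and p-values were adjusted by Benjamini-Hochberg over 12644 genes. A gene was called at an adjusted p under 0.05. The method was checked on simulated data.

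Genes named are the 12 per direction with the largest smaller-of-2 differences among those called against each line with both MDA-MB-468 changes beyond all 4 ER+ changes (values on every array for the first 6), 5 per line and direction that differed from 1 ER+ line only, up to 3 per list by the smaller moderated statistic, 13 fixed genes, 6 of opposite direction, and 3 on each side of the level. ZFP36L1, GADD45B, IER2, IER3, KLF10, SRF, ORC3, ORC5, FANCF, FANCL and others listed from a count stand outside the rule where they are not among its 3 per list. Members and lists were chosen with earlier results of these data known. The background level was that of 23 background probe sets, a step chosen after the data were seen.

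Alternatives were centring on array medians, quantile normalization, a floor of 16, no filter, the mean of all probe sets, no trend, the 12 arrays alone, a replicate block, DMSO levels of 6 and 8, a level set on the 50 nM arrays, DMSO levels within 1 log2 unit, and leaving out each array.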

Additional observations from a re-analysis of the deposited data

Results flagged for a closer look

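The change at 250 nM differed between lines by a test of the difference itself, limma's contrast of the changes. It called 159 members lower and 1862 higher in MDA-MB-468 than in ZR-75-1, 637 lower and 544 higher than in T47D, and 104 lower and 368 higher than in each. For the leading genes the smaller of the 2 differences, on the log2 scale, was -2.43 for ELF3, -1.95 for MYC, -1.93 for CITED2, -1.86 for RIPK4, -1.84 for CDKN1B and -1.74 for BBC3. It was -1.48 for C15orf39, -1.47 for IRF2BPL, -1.44 for FBXO5, -1.23 for PLK2, -1.20 for SERTAD1 and -1.19 for RBM15. On the other side it was 1.38 for IFRD1, 1.37 for TUBGCP3, 1.33 for EIF5, 1.28 for ANKS1A, 1.19 for RCAN1 and 1.17 for BLM. It was 1.17 for PURB, 1.15 for HAUS6, 1.12 for DLEU1, 1.11 for ZBTB41 and 1.08 for both GOLPH3L and NSRP1.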

How the results depend on the processing

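Counts of members are given in the order lower and higher than in ZR-75-1, lower and higher than in T47D, lower and higher than in each, and lower and higher than in the mean of the ER+ lines. They were 159, 1862, 637, 544, 104, 368, 327 and 1280. Leaving out 1 array gave 123 to 156, 1431 to 1913, 462 to 654, 293 to 694, 85 to 103, 210 to 456, 251 to 319 and 763 to 1365. Centring gave 415 lower than in T47D. Quantile normalization, which moved the median difference from ZR-75-1 over all genes tested from 0.114 to 0.001, gave 468 lower and 1138 higher than in ZR-75-1, 189 lower than in each, and 563 lower and 829 higher than in the mean. A DMSO level of 8 gave 100, 1214, 391, 343, 59 and 230, and 194 lower than in the mean. DMSO levels within 1 log2 unit gave 81, 1131, 415, 327, 51, 219, 193 and 770, and these 2 settings keep fewer members by construction. The cause of the other shifts was not tested. Of the 104 and 368 genes, 99 and 239 were called after quantile normalization and 84 and 311 after centring. With the mean of all probe sets 71 and 189 were called. Under the settings that refit the model 0 were called in the opposite direction. Named differences that changed sign and were called in either fit were ITGA6 against ZR-75-1 (-0.49, quantile normalization) and, with the mean of all probe sets, FOXA1 against ZR-75-1 (0.50), and MYO9A (-0.20), BCL2L2 (-0.06), MED27 (-0.092) and PIK3R3 (-0.39) against T47D. A further 59 values, of 31 differences that were called neither before nor after (at most 0.48 in size before), also changed sign, 16 of them with the mean of all probe sets and 14 after quantile normalization. The replicate block gave 152, 1815, 609, 522, 102, 354, 300 and 1223. Same-numbered arrays shared only a number, since over 15 pairs their deviations correlated at -0.30 to 0.49, with a median of -0.04. Some alternatives were chosen after seeing the data. With 2 arrays per group, small differences could not be measured precisely.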
